A study of Mus musculus with 54 samples.

Results

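Hand2 and Hand1 are the paired HAND genes of the mouse, and this account follows the chromatin of both while mouse embryonic stem cells became heart muscle in culture. The members are all enriched regions that overlap one of 2 windows in mm9 coordinates, chr8:59770000-59840000 for Hand2 and chr11:57625000-57665000 for Hand1. In all, 668 regions overlapped the windows, 451 at Hand2 and 217 at Hand1, out of 1590704 regions in 46 libraries. The windows were chosen by the calls, lengths and peak heights of these same lists, for every mark and stage. The values inside them are therefore a description, and none of them was put to a test.

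The study used ChIP-seq on 129/Ola mouse stem cells, grown as embryoid bodies and then plated, with VEGF, activin A, BMP4 and FGF proteins added on the way. The 4 stages were ESC, the embryonic stem cells at day 0, MES, the mesoderm at day 4, CP, the precursors of heart cells at day 5.3, and CM, the cardiomyocytes at day 10. The labels name no mutation or drug at any stage. For H3K27me3, 2 ESC libraries (replicates 2 and 3) were set beside 3 of every other stage. H3K4me3 and H3K27ac had 2 per stage and H3K4me1 had 3. RNA polymerase II carrying phosphate on Ser5 (RNAPII Ser5P) had a single ESC library and 2 of every other stage. The labels name no sorting step, and each library averages over the cells of a dish.

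HAND1 and HAND2 are basic helix-loop-helix transcription factors that bind DNA at E-boxes as dimers. HAND2 is needed for the right ventricle and HAND1 acts mainly in the left ventricle and in extraembryonic tissue. Polycomb complexes lay down H3K27me3 over such developmental genes in stem cells, often together with H3K4me3, a pair of marks called bivalent. H3K27ac marks active promoters and enhancers, H3K4me1 marks enhancers and the flanks of promoters, and the Ser5P form of the polymerase sits where transcription starts. Hand2 shares its upstream region with Hand2os1, a long noncoding RNA also called Upperhand that is read in the opposite direction.

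The label given to the pair, release from Polycomb, was not tested, since it rests on these same lists and no Polycomb protein was measured. By H3K27me3 calls alone, Hand2 had none left in CM and Hand1 kept a part. In the Hand2 window, 0 of 3 CM libraries had an H3K27me3 region. In the Hand1 window, 3 of 3 CM libraries still had some. Across the genome, 7.42% of the H3K27me3 domains called in every MES library had no call in CM.

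The bases just before the start of Hand2 are shown because Hand2os1 starts inside this stretch and Hand2 starts right after it. RefSeq, on build GRCm38.p6, puts the first base of Hand2 at 57320983 on the plus strand of chromosome 8, and the first base of Hand2os1 124 bases away on the minus strand. The 250 bases upstream of Hand2, chr8:57320733-57320982 of GRCm38.p6 on the plus strand, read as follows, with capitals for the motifs searched.
Hand2: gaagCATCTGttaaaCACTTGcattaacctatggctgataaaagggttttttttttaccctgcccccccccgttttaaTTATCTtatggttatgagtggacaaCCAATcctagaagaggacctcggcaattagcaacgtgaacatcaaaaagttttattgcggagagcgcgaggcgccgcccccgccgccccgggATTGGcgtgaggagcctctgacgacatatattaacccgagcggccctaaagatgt

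The motifs were looked for on both strands. TTATCT, 1 form of the letters of a GATA factor site, stood once, 172 bases upstream. Of the 32841 RefSeq promoter stretches of the same length, 9.99% hold it. Other forms of that site were not searched for, and the stretch also reads tgataa, left in small letters. CCAAT stood at 2 places, 147 and 55 bases upstream, and 33.9% of promoters hold it. The E-box CANNTG, the kind of site that basic helix-loop-helix factors bind, stood at 2 places, 246 and 235 bases upstream, and 66.2% of promoters hold it. No motif overlapped another. The stretch held 15 CG pairs at a GC content of 49.2%, and its ratio of observed to expected CG pairs was 0.99, reached or passed by 6.04% of promoters. The 250 bases upstream of Hand2os1 held 22 CG pairs at a ratio of 0.99. A match of letters is a description of the sequence and says nothing of binding. The stretch could not be laid onto the mm9 lists, since no table joins both builds. RefSeq gives the gene order Hand2os1, Hand2, Gm34030 and Hdnr on chromosome 8 and Sap30l, Hand1 and Gm32915 on chromosome 11, and Hand1 had no promoter entry.

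The lists differed in size within each mark. H3K27me3 lists held 2929 to 38392 regions, H3K27ac lists 25170 to 73186, H3K4me1 lists 31571 to 96999, H3K4me3 lists 21264 to 54528 and RNAPII Ser5P lists 11332 to 48837. The smallest H3K27me3 lists were replicate 3 of CM, with 2929 regions over 0.411 Mb, and replicate 3 of ESC, with 3252 regions over 0.477 Mb. The other H3K27me3 lists covered 5.83 to 29.7 Mb. Sequencing depth is unknown from these lists, and no interval for counting error could be had. For H3K27ac, the cell type label of both CM libraries reads stem cells, while title, source and day read cardiomyocytes, and they were taken as CM. The identity of the cells was not checked against marker genes, as the lists hold no gene names and no mm9 annotation was at hand. In all lists, fewer cells with a mark and less of the mark per cell cannot be told apart.

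Positions below are given as distances from the place where RNAPII Ser5P was highest in each window, 59799837 on chromosome 8 for Hand2 and 57645437 on chromosome 11 for Hand1, counted along rising mm9 coordinates. At Hand2, the highest Ser5P region peaked within 1 kb of this place in 5 of the 6 libraries with a call, and replicate 1 of MES had its highest point 20 kb away. At Hand1, the highest point was within 1 kb in 5 of 5 libraries.

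**Figure D1:**
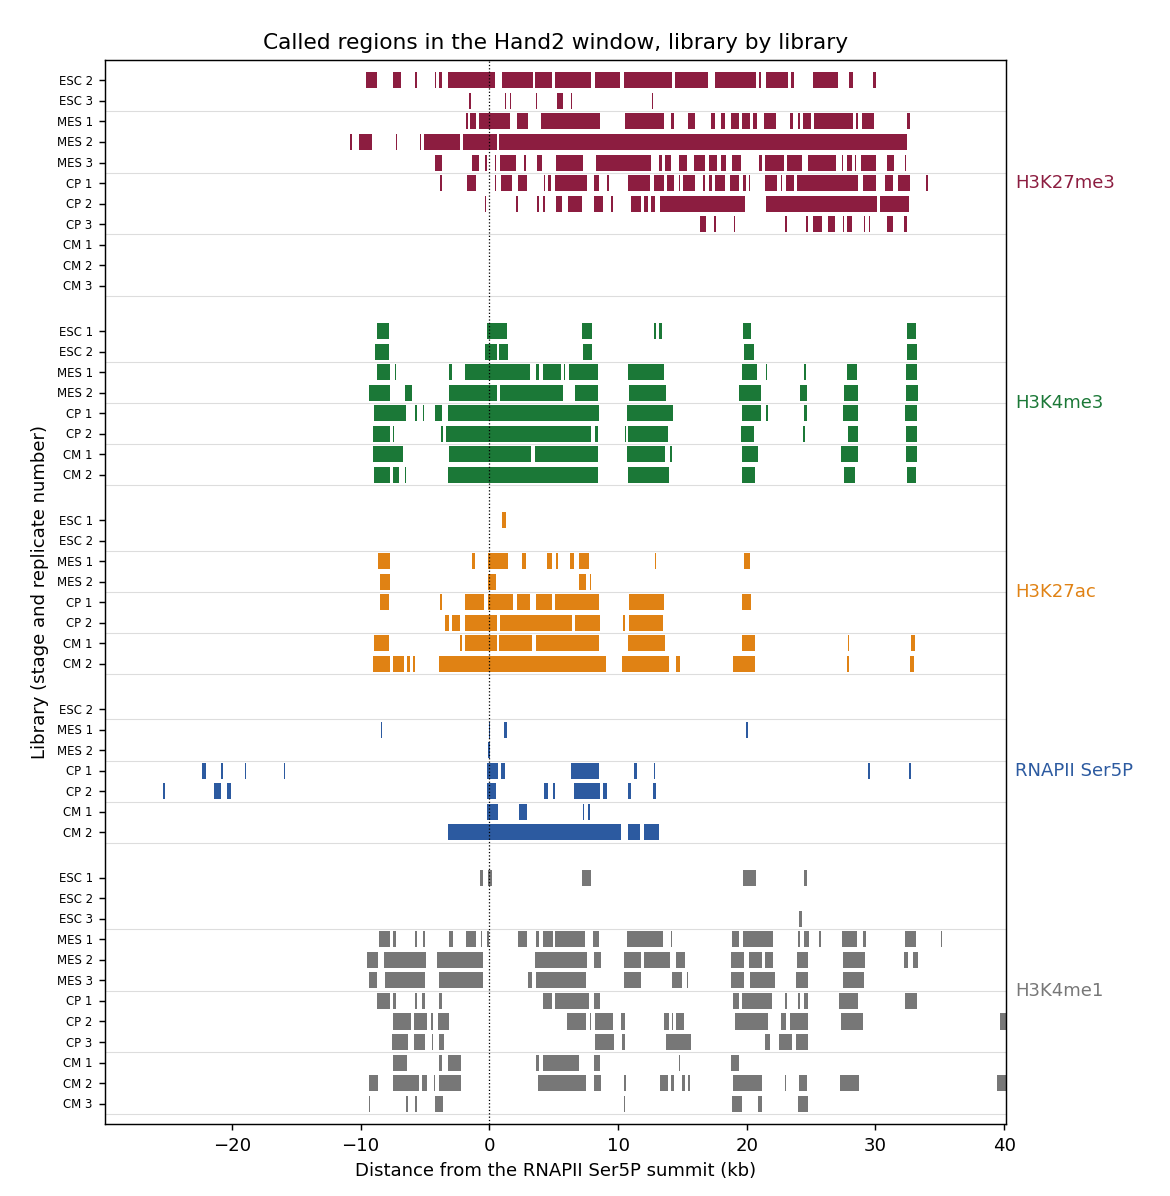
Called regions in the Hand2 window. Each row is a library, the x axis is the distance from the RNAPII Ser5P summit in kb, and each bar is a region called by the authors. H3K27me3 bars reach 30.1 kb in ESC replicate 2 and 32.4 to 34.1 kb in MES and CP, and are missing from all 3 CM rows, while H3K27ac and RNAPII Ser5P bars fill in around the summit.

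H3K27me3 was called in the Hand2 window in every library of stem cells, mesoderm and precursors, over 0.925 to 38.2 kb, and in no cardiomyocyte library. In ESC, called regions covered 28.1 kb in replicate 2 and 0.925 kb in replicate 3. In MES they covered 20.65, 38.2 and 20.9 kb. In CP they covered 20.95, 21.9 and 3.40 kb. In CM they covered 0, 0 and 0 kb. The mean was 14.5 ± 19.2 kb in ESC (SD, n = 2). For MES, CP and CM it was 26.6 ± 10.1, 15.4 ± 10.4 and 0 kb (n = 3 each). CM did not overlap any other stage, the low ESC value came from the small list of replicate 3, and MES and CP overlapped.

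The CM lists without a call at Hand2 differed in size. Replicate 1 of CM held 20484 H3K27me3 regions over 11.6 Mb, against 20012 regions over 14.1 Mb in replicate 1 of MES. In replicate 1 of CM, the nearest region outside the window lay 996 kb away. In replicate 2 of CM, with 11925 regions, the nearest lay 248 kb away. In replicate 3, the small list, it lay 6844 kb away. The ESC list of similar size had 8 short regions at Hand2, the longest of 400 bases.

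The longest Hand2 region of H3K27me3 was a single run of 31700 bases in replicate 2 of MES, rank 10 by length among 12929 regions of that library. The longest region elsewhere was 3775 bases in replicate 2 of ESC, 4525 and 4300 bases in replicates 1 and 3 of MES, and 4700, 8625 and 675 bases in the CP libraries. The MES libraries had 7 to 32 separate regions in the whole window, and 12 kb were called in all 3 of them. In CP only 2.98 kb were called in all 3 libraries, and 27 kb were called in at least 1.

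The highest H3K27me3 region lay at another place in precursors than in mesoderm. The highest region peaked at 6.63 and 1.63 kb in ESC, and at 6.35, 8.23 and 5.38 kb in MES. In CP it peaked at 25.5, 25.7 and 25.4 kb in the 3 libraries, so that CP and MES did not overlap and the CP summits lay within 1 kb of each other. Peak heights are signal values on a scale that differs between libraries, so they were read as ranks. The highest Hand2 region stood at the 94.6th percentile of peak height in replicate 2 of ESC and the 64.4th in replicate 3, at the 93.8th, 94.1st and 96.9th in MES, and at the 92.0th, 80.6th and 87.3rd in CP. The middle of the covered bases lay at 12.51, 13.4 and 14.9 kb in MES, and at 18.01, 19.8 and 26.4 kb in CP. In replicate 3 of CP, the first covered base lay 15.6 kb from the Ser5P summit, and nothing was called before it.

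H3K27ac, the active mark, was nearly missing from Hand2 in stem cells and broad by the precursor stage. It covered 0.250 and 0 kb in ESC, 5.33 and 2.03 kb in MES, 13.4 and 13.6 kb in CP and 15.45 and 21.75 kb in CM. The stage means were 0.125 ± 0.177, 3.68 ± 2.33, 13.5 ± 0.124 and 18.6 ± 4.45 kb (SD, n = 2 each), and no 2 stages overlapped. Replicate 2 of CM had 1 unbroken H3K27ac region of 13000 bases that spanned the Ser5P summit, from -3.91 to 9.09 kb, rank 11 by length of 33211. In replicate 1 of CM the same stretch was split into pieces, the longest of 4925 bases at rank 144 of 30608.

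RNAPII Ser5P was not called at Hand2 in the ESC library, whose nearest region lay 126 kb outside the window. It covered 0.625 and 0.175 kb in MES, 4.53 and 5.08 kb in CP and 1.83 and 15.6 kb in CM. ESC, MES and CP did not overlap, whereas the CM libraries lay on both sides of CP. The width of Ser5P in CM rests on 1 library. Replicate 2 of CM had a single region of 13450 bases, from -3.24 to 10.2 kb, at rank 60 by length, and replicate 1 had a longest region of 900 bases at rank 954. The lowest peak height in the list was 9 in replicate 1 and 28 in replicate 2. In both libraries the region over the summit was among the higher ones, at the 92.3rd percentile of peak height in replicate 1 and the 98.1st in replicate 2.

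Ser5P regions far from the summit were seen in precursors. In CP, 4 regions of replicate 1 lay between -22.3 and -15.9 kb and 3 regions of replicate 2 lay between -25.3 and -20.1 kb. In MES and CM no Ser5P region lay that far to this side. A second broad stretch, 2175 bases in replicate 1 and 2050 bases in replicate 2, was called in CP at 6.31 to 8.49 kb and 6.59 to 8.64 kb. It covered 1 of the places with H3K4me3 in every library.

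H3K4me3 was present at Hand2 before any Ser5P call and widened in mesoderm. It covered 4.98 and 4.80 kb in ESC, 16.2 and 19.6 kb in MES, 22.55 and 18.98 kb in CP and 20.05 and 19.1 kb in CM. ESC lay below all later libraries, and the later stages overlapped. In CP its longest regions, 11675 and 11275 bases, stood at rank 2 by length in both libraries. In CM the longest were 6425 bases at rank 23 and 11700 bases at rank 3. All 8 H3K4me3 libraries shared 6 places at Hand2, of 525 to 925 bases each, centred at -8.27, 0.20, 1.11, 7.61, 20.1 and 32.8 kb. They carried H3K4me3 in ESC, MES and CP, where H3K27me3 was called in the window, and also in CM, where it was not.

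H3K4me1 covered 2.43, 0.025 and 0.225 kb of the Hand2 window in ESC, 15.7, 22.3 and 18.9 kb in MES, 11.4, 14.35 and 8.75 kb in CP and 6.55, 15.6 and 2.93 kb in CM. It was widest in MES, which no library of another stage overlapped, although replicate 2 of CM came close to the lowest MES library. No H3K4me1 region of the MES, CP and CM libraries covered the Ser5P summit itself, as the map of the Hand2 window shows.

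**Figure D2:**
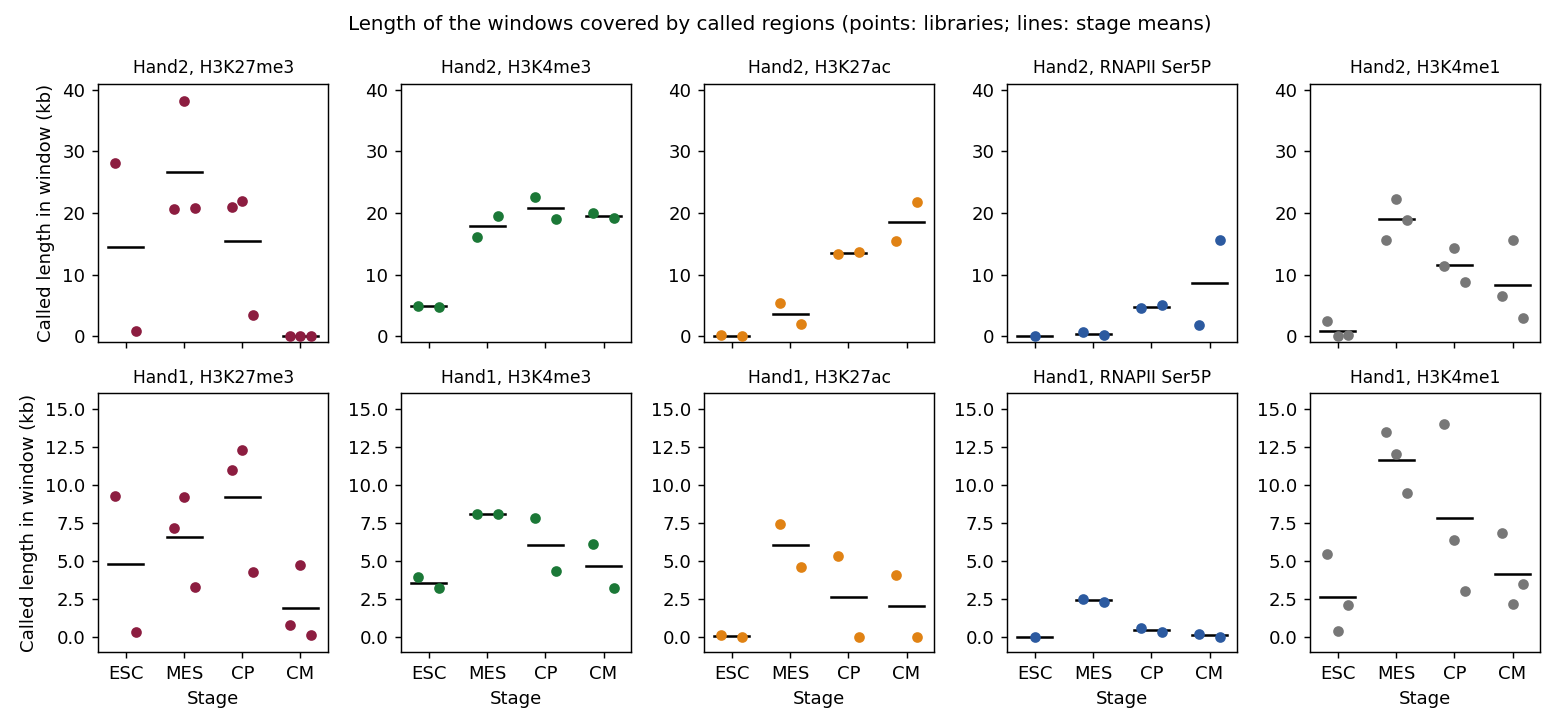
Length of the Hand2 window (upper row) and of the Hand1 window (lower row) covered by called regions, in kb, for each mark and stage. Points are libraries and lines are stage means. At Hand2, H3K27me3 is at 0 in the 3 CM libraries and H3K27ac is at 15.45 and 21.75 kb, while at Hand1 H3K27me3 stays above 0 in CM and RNAPII Ser5P has its highest values, 2.50 and 2.33 kb, in MES.

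At Hand1, H3K27me3 was on average narrower in cardiomyocytes than at any earlier stage, and it did not vanish. Called regions covered 9.28 and 0.300 kb in ESC, 7.15, 9.18 and 3.30 kb in MES, 11, 12.3 and 4.28 kb in CP and 0.775, 4.75 and 0.125 kb in CM. The mean was 4.79 ± 6.35 kb in ESC (SD, n = 2). For MES, CP and CM it was 6.54 ± 2.98, 9.18 ± 4.30 and 1.88 ± 2.50 kb (n = 3 each). CM overlapped ESC, and it overlapped MES and CP through its replicate 2, which held 9 regions, the longest of 1550 bases. Replicate 1 of CM held 3 regions, of at most 550 bases, and replicate 3 held 2, of at most 100 bases. Without the replicate 2 libraries, CM averaged 0.45 kb and ESC 0.300 kb, so that the order of CM and ESC rests on replicate 2. The longest Hand1 region was 8000 bases, in replicate 2 of CP, at rank 301.

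The highest H3K27me3 region at Hand1 peaked at -2.28 and -0.73 kb in ESC, at -2.35, 4.85 and -2.13 kb in MES and at -2.30, -3.80 and -2.70 kb in CP. In CM it peaked at 4.75, 5.38 and -0.10 kb. The CP summits overlapped those of MES, and the Hand1 domain, 15 kb long, leaves no room for a shift as long as that at Hand2.

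H3K27ac and RNAPII Ser5P at Hand1 were widest in mesoderm. H3K27ac covered 0.150 and 0 kb in ESC, 7.45 and 4.58 kb in MES, 5.30 and 0 kb in CP and 4.08 and 0 kb in CM. In CP and CM the replicates went apart, with regions in replicate 1 and none in replicate 2, although the replicate 2 lists held 27445 and 33211 regions. RNAPII Ser5P had no call in the ESC library, covered 2.50 and 2.33 kb in MES, 0.600 and 0.350 kb in CP, and 0.225 and 0 kb in CM. MES lay above all other libraries, and CP lay above CM. The Ser5P region on the summit was at the 73.5th and 95.8th percentile of peak height in MES and at the 97.2nd and 85.6th in CP, so that the stages overlapped in height while CP was narrower.

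H3K4me3 covered 3.95 and 3.20 kb of the Hand1 window in ESC, 8.08 and 8.05 kb in MES, 7.83 and 4.33 kb in CP and 6.13 and 3.25 kb in CM. MES lay above all other libraries, and CM overlapped ESC. All 8 libraries shared 4 places, centred at -4.0, -2.51, -0.34 and 5.28 kb, the last of a single 25-base step. H3K4me1 covered 5.45, 0.375 and 2.10 kb in ESC, 13.45, 12.03 and 9.48 kb in MES, 14, 6.4 and 3.05 kb in CP and 6.83, 2.18 and 3.48 kb in CM. MES lay above ESC and CM without overlap, and CP overlapped all of them.

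**Figure D3:**
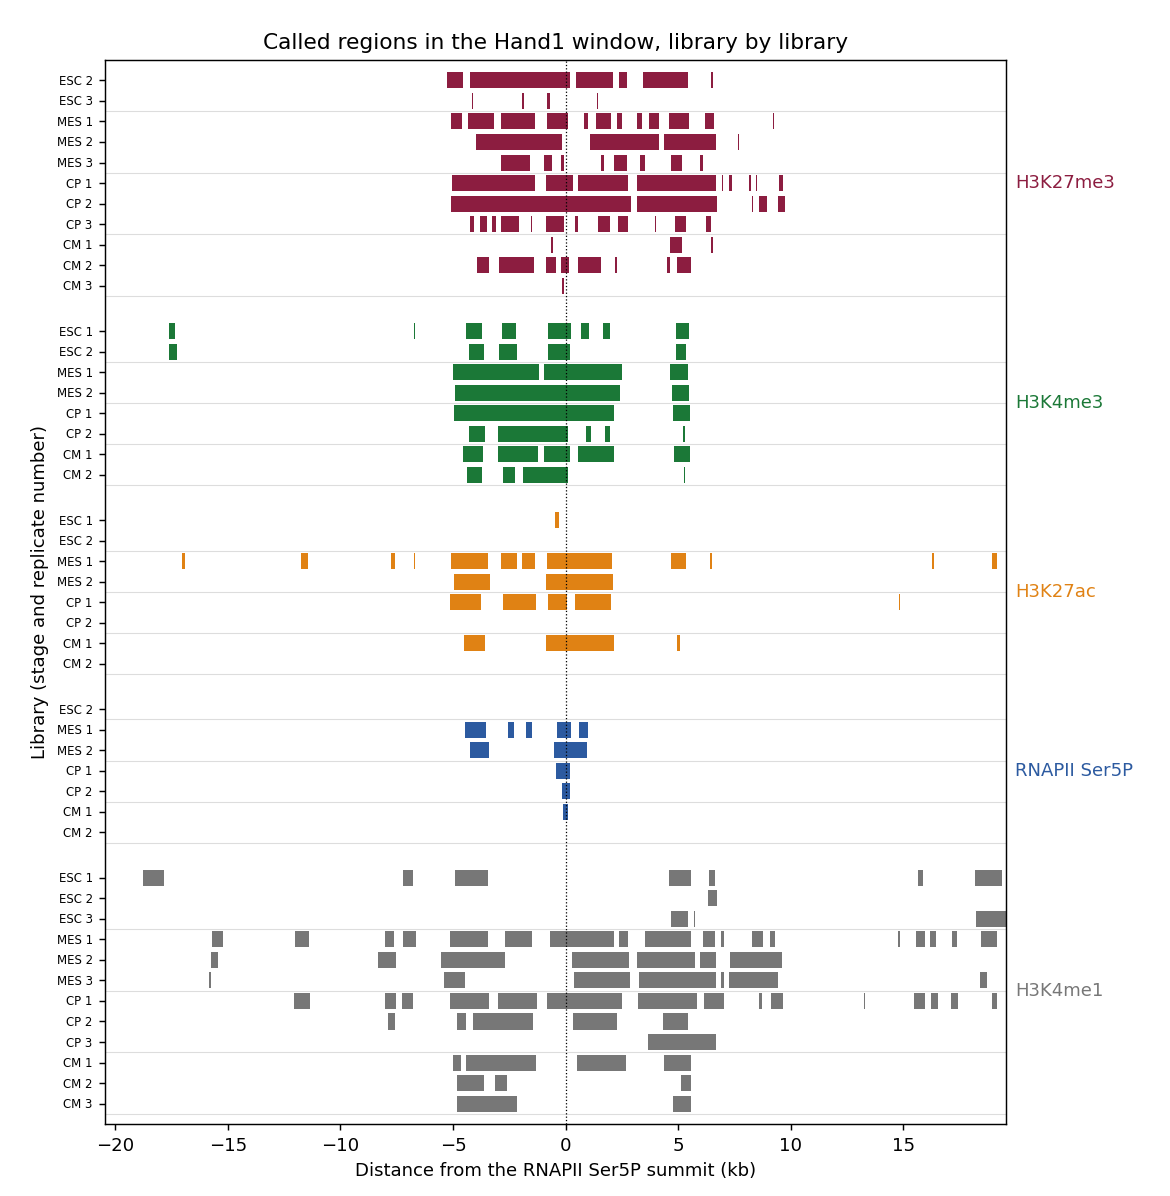
Called regions in the Hand1 window. Each row is a library, the x axis is the distance from the RNAPII Ser5P summit in kb, and each bar is a region called by the authors. Short H3K27me3 bars remain in the 3 CM rows, and the H3K27ac rows of CP replicate 2 and CM replicate 2 are empty.

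Active marks and H3K27me3 were called over the same bases in ESC, MES and CP at both loci, and in CM at Hand1. Every H3K27me3 library of a stage was paired with every library of the other mark. At Hand2 in MES, H3K27me3 lay over 19.8 to 82.2% of the H3K27ac bases (median 64.2%, 6 pairs), and in CP over 0 to 60.9% (median 30.3%, 6 pairs). Its share of the H3K4me3 bases was 35.6 to 87.2% in MES and 2.11 to 49.7% in CP. At Hand1 in MES, H3K27me3 lay over 10.9 to 69.5% of the H3K27ac bases (median 54.04%, 6 pairs), and in CP over 45.3 to 99.1% (3 pairs, since the other CP library had no H3K27ac there). In CM it lay over 2.45 to 56.4% of them (median 6.13%, 3 pairs for the same reason). Its share of the Hand1 H3K4me3 bases was 45.4 to 100% in CP and 2.04 to 68.6% in CM. Marks on the same chromatin and marks in different cells of the dish, or on different alleles, cannot be told apart in these lists.

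The H3K27me3 regions of all libraries, joined where they lay within 1 kb, formed 1 domain in each window. The Hand2 domain was chr8:59794101-59833950, 39850 bases, rank 43 by length of 2553 domains of at least 5 kb. The Hand1 domain was chr11:57640176-57655175, 15000 bases, rank 394. Each was split into the bases with H3K27ac in both libraries of at least 1 stage, called the acetylated part here, and the rest, a split chosen after the values were seen. The acetylated part was 14.3 kb at Hand2, with 25.6 kb left, and 4.43 kb at Hand1, with 10.6 kb left. The 2 parts come from different stages. In the Hand2 window, 1.9, 11.2 and 15.4 kb had H3K27ac in both libraries of MES, CP and CM. In the Hand1 window, 4.43 kb had it in both MES libraries, and no base had it in both libraries of ESC, CP or CM. The Hand1 part thus holds only bases acetylated in MES.

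In ESC, H3K27me3 covered 91.6 and 6.48% of the acetylated part at Hand2, against 53.3 and 0% of the rest. In MES it covered 82.0, 96.7 and 49.4% of the acetylated part, against 35, 90.9 and 54.2% of the rest. In CP it covered 57.3, 32.6 and 0.525% of the acetylated part, against 50.0, 67.3 and 13.0% of the rest. The mean over CP libraries was 30.1 ± 28.5% of the acetylated part and 43.4 ± 27.7% of the rest (SD, n = 3), a gap smaller than the spread between libraries. In replicates 2 and 3 of CP, H3K27me3 was thinner on the acetylated part, and in replicate 1 the 2 parts were close. The acetylated part minus the rest came to 7.32, -34.7 and -12.48 points in replicates 1, 2 and 3. Of the 549 domains with at least 1 kb in each part, 41.9, 10.2 and 14.8% had a difference as low or lower. The median difference was 12.7, 13.04 and 0 points.

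At Hand1, H3K27me3 covered 68.4, 49.7 and 10.7% of the acetylated part in MES, against 39.0, 65.96 and 26.7% of the rest. In CP it covered 94.9, 100 and 44.6% of the acetylated part, against 64.3, 74.2 and 21.7% of the rest, higher on the acetylated part in 3 of 3 libraries. In CM it covered 2.82, 51.4 and 2.26% of the acetylated part, against 6.15, 23.4 and 0.236% of the rest. The CP differences at Hand1 were 30.6, 25.8 and 22.9 points, and 80.7, 65.4 and 74.1% of the 549 domains had a difference that low or lower, so a larger share on the acetylated part was not rare.

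**Figure D4:**
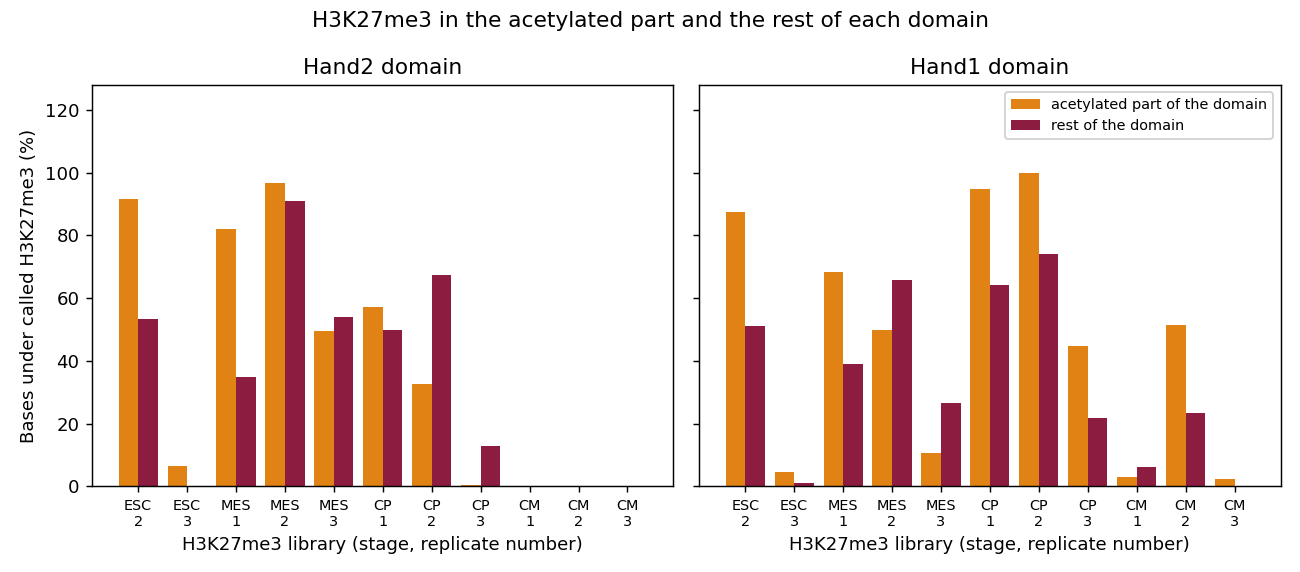
Share of bases under called H3K27me3, in percent, in the acetylated part and in the rest of the Hand2 domain (left) and the Hand1 domain (right), with a pair of bars for each H3K27me3 library. In CP replicates 2 and 3 the Hand2 bar of the acetylated part is the lower one, 32.6 against 67.3% and 0.525 against 13.0%. At Hand1 the bar of the acetylated part is the higher one in all 3 CP libraries. That Hand1 part holds only bases acetylated in both MES libraries, none of them acetylated in both CP libraries.

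The Hand domains were read against all H3K27me3 domains of the genome. Among domains with a mean covered share of at least 20% in ESC, 20.4% (92 of 451) fell below 50% of their ESC share in CM, and both Hand domains were among them. Against MES, 44.9% of 1703 domains fell below 50% of their MES share, again with both Hand domains. CM minus ESC came to -34.7 points at Hand2 and -19.4 points at Hand1, against a median of 7.48 points over the 1703 domains. Over all 2553 domains, the median share was 11.3 and 0% in ESC replicates 2 and 3, and 28.5, 12.6 and 0% in CM. The 1703 domains were those with at least 20% in MES, and the effect of list size on their median was not tested. Neither Hand domain had fallen below 50% of its MES share by CP, which only 1.76% of domains did. A smaller share lost every call. Of 2008 domains called in every MES library, 7.42% (149) had no call in any CM library, among them Hand2 and not Hand1. Of 932 domains called in every ESC library, 4.18% had none in CM, again Hand2 and not Hand1.

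Long domains seldom lost every call. Of the 108 domains called in every MES library and within 1.5 times the length of the Hand2 domain, 0.926% had no call in CM, which was 1 domain, Hand2 itself. In that length band, 21.2% of the 99 with at least 20% in MES fell below 50% of their MES share. Of 586 domains in the length band of Hand1, 3.75% lost every call, and 35.9% of the 504 with at least 20% in MES fell below 50% of it. These shares are descriptions, as the windows were chosen for their loss.

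The mean covered share of the Hand2 domain was 34.7, 65.7, 38.6 and 0% over ESC, MES, CP and CM. Over the same stages, the median of the 1703 domains with at least 20% in MES was 11.1, 36.4, 57.3 and 18.96%. Most domains thus had a larger called share in CP than in MES, by a median of 20.1 points. The H3K27me3 lists covered 9.38 to 29.7 Mb in CP and 5.83 to 14.6 Mb in MES. The Hand2 domain changed by -27.1 points between these stages, and 1.29% of domains had a change that low or lower. From MES to CM, Hand2 changed by -65.7 points against a median of -17.8, and 0.47% of domains changed as far. The Hand1 domain had 31.9, 43.6, 61.2 and 12.6% over the 4 stages. It followed the median between MES and CP, with a change of 17.6 points, and changed by -31.1 points from MES to CM, where 16.3% of domains had a change that low or lower.

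The shift of the highest H3K27me3 region at Hand2 was uncommon among long domains. In 5.56% of the 108 domains in its length band, the highest region of all 3 CP libraries lay on 1 side of all 3 MES libraries and at least 10 kb away, and Hand2 was 1 of these 6. This criterion matches the Hand2 positions given above, so Hand2 was bound to meet it and the share is a description. In the length band of Hand1, the CP summits lay on 1 side of the MES summits in 16.2% of 575 domains, and Hand1 was not among them.

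**Figure D5:**
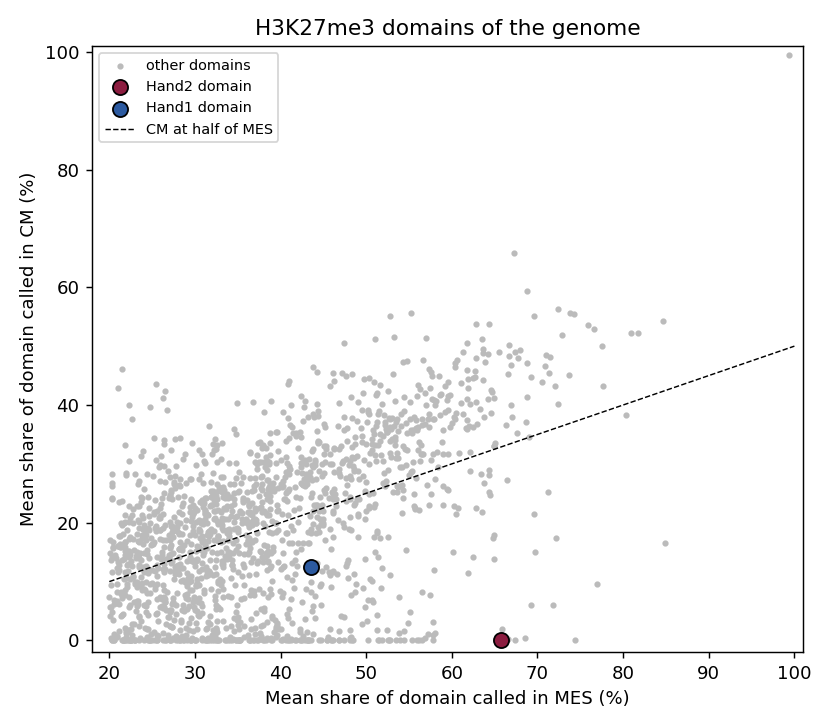
Mean share of each H3K27me3 domain under called regions in MES (x axis, percent) and in CM (y axis, percent), for the 1703 domains with at least 20% in MES. The dashed line marks CM at 50% of MES. The Hand2 domain lies on the x axis at 65.7% and the Hand1 domain lies at 43.6 and 12.6%, both under the line.

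The gain of active marks was also set against other domains. Over the 2008 domains called in every MES library, 15.4% had H3K27ac in both CM libraries and not in both ESC libraries, and 3.74% had RNAPII Ser5P in both CM libraries and none in the ESC library. Hand2 was among both and Hand1 among neither. By MES, 24.5% had gained H3K27ac and 6.27% had gained RNAPII Ser5P, and here both Hand domains were counted. H3K4me3 was called in every library of all 4 stages in 90.6% of these domains, with both Hand domains among them, so the lasting H3K4me3 sets neither apart. Loss of every H3K27me3 call with H3K27ac and RNAPII Ser5P in every CM library was met by 2.39% of domains, 48 in all. Hand2 was the longest of the 48, at 39.85 kb, and the next was chr11:18905551-18919725, at 14.2 kb.

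Within these domains, single CM libraries placed Hand2 high. H3K27ac covered 35.8 and 48.2% of the Hand2 domain in CM, at the 97.7th and 97.9th percentile of 2553 domains, and 0.627 and 0% in ESC. RNAPII Ser5P covered 4.58 and 39.1% in CM, at the 95.1st and 98.9th percentile. These ranks are crowded at the top, since 74.3 and 72.97% of domains had no H3K27ac call in those libraries, and 83.2 and 91.1% had no RNAPII Ser5P call.

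The domains most like each Hand domain were found by Pearson correlation of the covered share over the 46 libraries of all marks, over 2551 other domains. The points share libraries, stages and list sizes, and all correlations are given as a description. For Hand2 the median was 0.41 and the 5 highest were chr17:26970251-26993950 at 0.87, chr7:123172576-123186150 at 0.85, chr14:63858201-63890400 at 0.82, chr4:97441401-97447850 at 0.81 and chr1:39247751-39254125 at 0.79. Their H3K27me3 share in CM was 5.98, 7.80, 2.20, 0 and 0%, against 71.8, 57.5, 36.96, 53.5 and 67.3% in MES. The H3K27me3 shares were among the values correlated, so this likeness to Hand2 is part of how the domains were chosen. For Hand1 the median was 0.56 and the 5 highest were chr7:105977601-105989975 at 0.90, chr18:80901651-80917775 at 0.88, chr2:118709276-118731175 at 0.87, chr18:15218976-15227775 at 0.86 and chr3:105251551-105260150 at 0.86. These kept 10.0, 12.6, 10.96, 25.6 and 5.33% in CM, against 50.6, 41.9, 35.5, 45.1 and 16.4% in MES, values that also entered their choice. The Hand2 and Hand1 domains had an r of 0.63 with each other, below the 5 highest of either.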

How the data were processed

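ChIP-seq of 5 targets at 4 stages was labelled for 54 samples. Lists of enriched regions were used for 46, and the 8 whole cell extract samples were not analysed here. Per the submitters' processing notes, reads were aligned with Bowtie to mm9; versions, the caller and its thresholds are not given in the sources used here. The authors called regions library by library, as the lists show. The deposited lengths count bases, recorded under the unit other, and the deposited peak heights and totals were taken as signal, in steps of 25 bases. For 1 list without a header, the columns were read in the order the rest use. Starts were printed 1 above the listed start. Depth is unknown.

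A region belonged to a window when at least 1 base overlapped, covered length was clipped to the window, and the regions of a library were summed as listed. Domains were the union of H3K27me3 regions of all libraries, joined within 1 kb and at least 5 kb long. Covered shares were averaged over the libraries of a stage, and each share given for other domains is a background and no test. Means carry the SD over libraries, which the labels call replicates; whether they were separate differentiations beyond that was not checked. The members, the windows and the lists of other domains were chosen with earlier results of these data known. Named items were Hand2, Hand1 and the 5 domains most correlated with each. Marker genes of each stage and other heart regulators had been listed too, and were not looked up, since the gene table at hand is of GRCm38.p6 and positions were not carried between builds.

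Other settings tried were equal numbers of top regions per mark, a ratio of target to background of at least 8, regions within 1 kb merged, regions under 500 bases left out, windows widened by 20 kb, whole region lengths, domains of at least 10 kb or joined within 3 kb, and each replicate number left out. The code was tested on simulated data. Python 3.11.15, numpy 2.4.6, pandas 2.3.3, scipy 1.17.1 and matplotlib 3.10.9 were used.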

Additional observations from a re-analysis of the deposited data

How the results depend on the processing

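Of 69 alternative values, 1 reversed and 7 moved by more than the SD between libraries (for the share of domains, outside its 95% exact binomial interval, and for counts of domains, by more than 1.5 times). Of the other 61, 4 were exactly 0, all at Hand1. The SD came from the same ESC and CM libraries, so a wide spread left little room for a move. For H3K27me3 at Hand2 it was 13.6 kb, and leaving out either ESC library could not count as a move. For H3K27me3 at Hand1 it was 4.82 kb and for RNAPII Ser5P at Hand2 9.72 kb, each larger than the difference itself. For H3K27ac and RNAPII Ser5P at Hand1 the SD was 2.04 and 0.159 kb, again larger than the difference. For all of these results, the label says little about stability. The mean covered length in CM minus ESC at Hand2 was -14.5 kb for H3K27me3 and ranged over -28.1 to -0.925 kb with each replicate number left out; with a ratio of at least 8 it was -3.09 kb. For H3K27ac it was 18.5 kb, and 15.2 to 21.75 kb with a replicate left out. For RNAPII Ser5P it was 8.70 kb, and 15.6 kb without replicate 1; without replicate 2 no ESC library was left, so no value could be had. At Hand1, H3K27me3 differed by -2.90 kb, with a range of -6.51 to 0.15 kb with a replicate left out and -0.113 kb with a ratio of at least 8. The reversed value was 0.15 kb without replicate 2, which leaves CM replicates 1 and 3 and ESC replicate 3. H3K27ac at Hand1 differed by 1.96 kb (0 to 3.93 kb with a replicate left out, and 0 kb with a ratio of at least 8). RNAPII Ser5P differed by 0.113 kb (0 kb without replicate 1 and with regions under 500 bases left out). With the Hand1 window widened by 20 kb, H3K27ac differed by 0.813 kb.

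The share of domains below 50% of their ESC share, 20.4%, was 9.72% for domains of at least 10 kb, 25.5% with joining within 3 kb, and 0 to 27.8% with a replicate left out, where without replicate 2 only 5 domains remained to count. The 149 domains that lost every call were 98 with equal numbers of top regions, where fewer domains were counted and the share was 10.9% in place of 7.42%, and 140 to 210 with a replicate left out. The 48 with both active marks were 32 with equal numbers and 41 to 60 with a replicate left out. The count in the length band of Hand2 was 1 in each setting, of 55 to 111 domains, a share of 0.901 to 1.82%, and Hand2 was in all 3 counts in each setting. These counts, their settings and the split into parts were chosen after seeing the data. The causes of these moves were not tested.

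No paired analysis was possible because the results come from no test. With 1 to 3 libraries per stage and unknown depth, a missing call shows only that the authors' threshold was not passed, not that the mark was absent.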
